A study of Caenorhabditis elegans with 2 samples.

Results

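The regions described here were 454 stretches of the Caenorhabditis elegans genome with strong ChIP-seq signal just upstream of protein-coding genes, out of 7175 merged regions with strong signal in all. They were chosen by 2 measured values, so their signal and their position are descriptions and were not tested. An entry of the ranked peak list that compares both replicates was kept when its deposited signal, a measure of peak strength with no unit stated, was 50 or more. Overlapping entries were merged, and the summit of the strongest entry stood for the region. A region was a member when that summit lay outside every protein-coding gene and at most 500 bp upstream of a protein-coding start. The members made up 6.33% of the strong regions (exact 95% Clopper-Pearson interval 5.78 to 6.92, which covers counting error only), and 7.41% of the bases of the genome met the same position rule.

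All samples came from strain OP207, in which a fosmid transgene expresses the zinc finger gene ztf-1 with 2XTY1, eGFP and 3XFLAG tags, alongside an unc-119 marker. Whole L2 larvae of 28.5 hours, grown from synchronised starved L1 larvae after bleaching, were used, and chromatin sheared by sonication was precipitated with an antibody against GFP. There was 1 group with 2 biological replicates, so no conditions could be compared, and the matching control experiment was not analysed here. Since the material was whole animals, strong binding in few cells and weak binding in many cells cannot be told apart, and the tagged protein was made from the transgene and not from the native locus.

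A promoter is the DNA around a gene's start where transcription factors and RNA polymerase II assemble. In C. elegans the 5′ ends of many transcripts are replaced by a spliced leader, so the annotated start of a gene can lie downstream of the place where transcription begins, and neighbouring genes on opposite strands often share one short promoter interval. ChIP-seq reads pile up over the DNA that the tagged protein touches directly or through other proteins, and open, highly transcribed chromatin can also yield reads without specific binding.

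Sequences around some of the 30 strongest summits are shown first because they hold the same short words. Each is the reference sequence of assembly ce11 (RefSeq copy of WBcel235), up to 50 bases on either side of the summit, without bases of the downstream gene, read 5′ to 3′ towards the named gene. Capitals mark 5 words of 7 bases on either strand, and the shorter AGCGCG. Of the 30 strongest members, ACACGCT was in 8, CGCACAC in 7, ACGCTCC in 6, AACACGC in 6 and AGCGCGC in 6. The words were picked after these counts had been seen. The windows shown here were picked because each holds 1 or more of the 5 words, as 18 of the 30 strongest members did. Windows without one, such as that of Y55F3AR.2 with cct-8, are not in this block.
rpl-3 (chrIII:3867517-3867617, plus strand): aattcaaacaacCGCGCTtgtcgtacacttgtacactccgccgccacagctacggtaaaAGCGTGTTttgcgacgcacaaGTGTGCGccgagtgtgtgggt
tasp-1 (chrIII:10759219-10759306, plus strand): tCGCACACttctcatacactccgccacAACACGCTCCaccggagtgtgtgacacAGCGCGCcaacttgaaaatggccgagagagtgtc
cdc-48.1 (chrII:10563529-10563629, minus strand): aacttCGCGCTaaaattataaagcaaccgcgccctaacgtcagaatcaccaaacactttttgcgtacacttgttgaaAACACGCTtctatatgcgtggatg
cox-5A (chrIII:12905172-12905272, plus strand): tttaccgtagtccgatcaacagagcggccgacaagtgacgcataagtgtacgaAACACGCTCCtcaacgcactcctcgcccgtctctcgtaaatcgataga
rpl-15 (chrIV:654877-654977, minus strand): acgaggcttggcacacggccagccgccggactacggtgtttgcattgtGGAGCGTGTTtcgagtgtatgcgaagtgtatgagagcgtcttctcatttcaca
rpl-35 (chrIII:7854609-7854709, plus strand): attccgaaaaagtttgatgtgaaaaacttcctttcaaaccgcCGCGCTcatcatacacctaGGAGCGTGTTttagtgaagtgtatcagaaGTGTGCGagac
hsp-1 (chrIV:17278546-17278646, plus strand): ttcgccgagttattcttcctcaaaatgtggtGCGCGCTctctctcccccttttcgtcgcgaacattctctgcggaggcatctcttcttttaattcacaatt

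The next windows are shown for a pair of strong members and a weaker one, near heat shock protein genes or with the same letters. Capitals mark TTCNNGAA, the inverted pair of repeats at the core of a heat shock element, the site bound by heat shock factors.
F44E5.5 (chrII:11759440-11759540, plus strand): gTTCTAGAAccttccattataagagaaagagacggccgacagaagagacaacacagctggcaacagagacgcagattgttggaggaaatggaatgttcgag
R107.5 (chrIII:9053993-9054093, minus strand): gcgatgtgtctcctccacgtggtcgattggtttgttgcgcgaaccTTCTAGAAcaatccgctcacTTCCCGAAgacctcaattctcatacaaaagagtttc
hsp-16.41 (chrV:1805100-1805177, plus strand): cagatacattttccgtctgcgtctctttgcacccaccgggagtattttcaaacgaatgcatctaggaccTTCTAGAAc

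Of the 21 members with a signal of 100 or more, 6 stood upstream of genes in the cytosolic ribosomal protein list and 3 upstream of genes in the chaperone list. A further 10 faced genes in none of the gene lists used here, which need not hold every gene of a kind. The strongest of all was found at a distance of 287 bp from rpl-3, the gene for a core protein of the ribosome's large subunit. Its signal was 220.7 in the series-level ranked list, and the own ranked lists of replicates 1 and 2 gave it 89.2 and 119.6. The region 38 bp upstream of tasp-1, a gene for a threonine aspartase, had 217.0, with 89.1 and 123.8 in the replicates. The region 172 bp upstream of cdc-48.1, a gene for the p97 AAA ATPase that unfolds ubiquitinated proteins, had 204.2, with 133.8 and 70.4. Replicate 2 was the higher for rpl-3 and tasp-1 and replicate 1 for cdc-48.1, so the replicates did not give these regions one order.

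A region of signal 203.0 lay between F44E5.5 and F44E5.4, a divergent pair of HSP70 chaperone genes, 172 bp and 179 bp from their starts. It had 118.9 in replicate 1 and 85.5 in replicate 2. The region 269 bp upstream of cox-5A, which encodes a subunit of cytochrome c oxidase, had 173.1, with 82.2 and 88.1 in the replicates. A region between rpl-15 (351 bp), another large-subunit protein gene, and K11H12.8 (463 bp) had 162.6, with 110.9 and 42.9. Each replicate's signal is from that replicate's own list, so these pairs of values are set side by side with no shared scale. The region 363 bp upstream of hsp-1, which encodes the constitutive HSP70 of the cytosol, had 133.0, with 62.1 and 69.7.

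**Figure D1:**
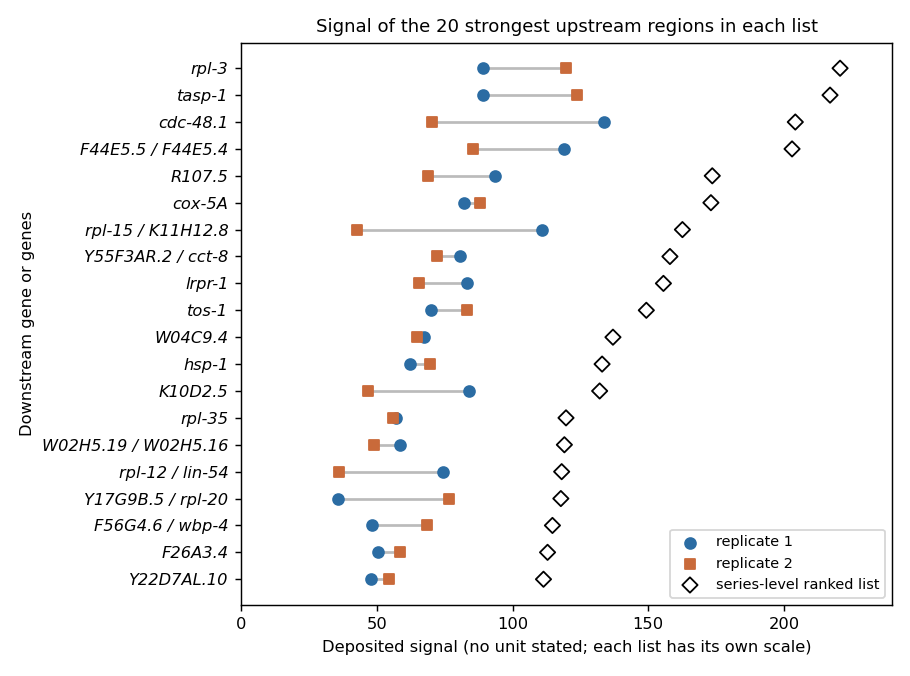
Deposited signal (no unit stated) of the 20 strongest upstream regions, in the series-level ranked list (open diamonds) and in the own lists of replicate 1 (circles) and replicate 2 (squares), with each region named by its downstream gene or genes. The series-level signal falls from 220.7 at rpl-3 to 111.4 at Y22D7AL.10 and the replicate signals, each on the scale of its own list, were 110.9 and 42.9 at rpl-15 / K11H12.8 and 57.0 and 56.0 at rpl-35.

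Among the other members with a signal of 100 or more were regions upstream of rpl-35 (119.7), rpl-12 and lin-54 (118.1), Y17G9B.5 and rpl-20 (117.8) and rps-1 (102.2). LIN-54 is the DNA-binding subunit of the DREAM complex, which represses cell cycle genes. The rest of this range were the regions at R107.5 (173.6), Y55F3AR.2 and cct-8 (158.0), lrpr-1 (155.6), tos-1 (149.3), W04C9.4 (137.0), K10D2.5 (132.1), W02H5.19 and W02H5.16 (119.1), F56G4.6 and wbp-4 (114.7), F26A3.4 (112.9) and Y22D7AL.10 (111.4). The gene cct-8 encodes a subunit of the cytosolic chaperonin that folds actin and tubulin. Its start was 445 bp from the summit, against 176 bp for Y55F3AR.2. Likewise rpl-20 was at 341 bp, against 121 bp for Y17G9B.5. Ranks 22 to 30 went to pab-2, Y25C1A.8, F48A11.4, vps-51 with lin-35, npp-8, pcn-1, wwp-1, T13C5.6 and epc-1 with Y111B2A.12, with signals from 98.8 down to 94.3. Of these, pab-2 encodes a poly(A)-binding protein, lin-35 the worm's retinoblastoma protein, npp-8 a nucleoporin and pcn-1 the sliding clamp PCNA.

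Few members reached such values. Signals ran from 50.07 to 220.7 with a median of 60.3, and 223 of the 454 were under 60. The weakest members were the regions at ruvb-2 (50.21), lron-7 (50.19), C36C5.15 (50.09), rnr-1 (50.07) and iglr-3 (50.07). Just below the threshold lay upstream regions at T06A10.106 (49.99), tag-297 (49.91), F08B12.11 with prmn-1 (49.91), laat-1 (49.86) and oac-11 (49.86). Neither ruvb-2, a gene for an AAA+ ATPase of chromatin remodelling complexes, nor its neighbours in this order stood apart from the regions left out.

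The share of ranked regions with an upstream summit changed with signal, and rose at the top of the list. From a signal of 2 up to 75 the share lay between 5.59% and 7.03% in each of 7 ranges, below the 7.41% of genome bases that meet the position rule. It was 8.97% from 75 to 100 (63 of 702 regions, 6.96 to 11.3) and 13% from 100 to 150 (12 of 92, 6.93 to 21.7). At 150 or more it was 69.2% (9 of 13, 38.6 to 90.9). Members took 13 of the first 25 places among all strong regions, 18 of the first 50 and 21 of the first 100. Most members came from the ranges of 50 to 60 (223, 5.59%) and 60 to 75 (147, 6.18%), where upstream summits were less frequent than upstream bases.

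**Figure D2:**
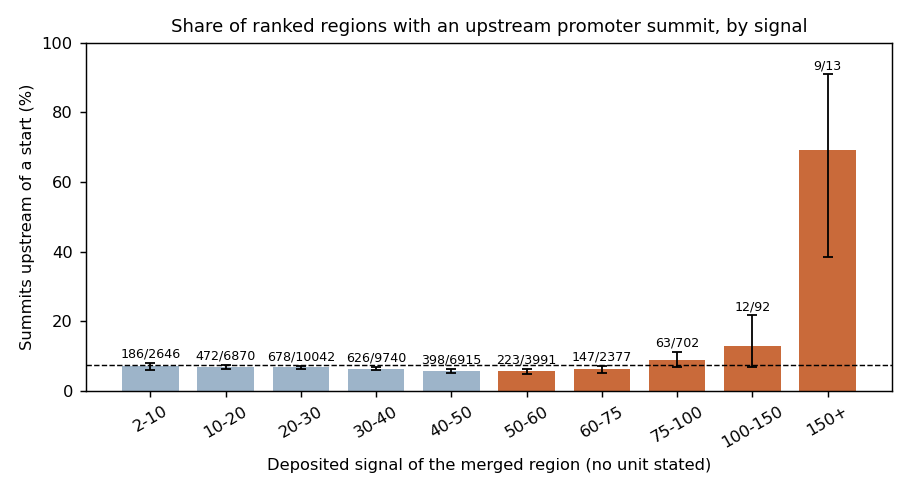
Share of merged ranked regions whose summit lies in the upstream window (%), by deposited signal (no unit stated), with exact 95% intervals, counts above the bars, and the share of genome bases that meet the rule as a dashed line. Ranges from a signal of 50 are in orange and lower ranges in blue, and the last bar (9 of 13 regions) reaches 69.2% while the bars below a signal of 75 lie under the line.

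Members passed the deposited reproducibility thresholds more often than strong regions as a whole, and those that passed were mostly the strongest. In the deposited list thresholded on the comparison of replicates, 35 members were present (7.71%), against 3.01% of all strong regions. In the pooled thresholded list 24 members were present (5.29%), against 2.17%. The replicate 1 thresholded list held 7 members (1.54%, against 0.251%) and the replicate 2 list 8 (1.76%, against 0.237%). The deposited q-value was 0.05 or less in 13 members (2.86%, against 0.362%), and those 13 were the 13 strongest. These values come from the same lists as the signal that chose the members, so they describe the members and support nothing about them. The median q-value of the members was 0.867, so most of them did not pass as single peaks.

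The 4 regions in both single-replicate thresholded lists were those of rpl-3, tasp-1, R107.5 and the F44E5.5 and F44E5.4 pair. A further 7 were in one of them, at cdc-48.1, rpl-15 with K11H12.8, lrpr-1, cox-5A, tos-1, hsp-1 and Y17G9B.5 with rpl-20. The strongest member outside the replicate-compared thresholded list was that of rps-1, a small-subunit ribosomal protein gene, with 38.6 and 50.5 in the replicates. The pooled list held 3 members that the replicate-compared list did not, at pab-2, Y25C1A.8 and ntl-2, the last a gene for a subunit of the CCR4-NOT complex, which removes poly(A) tails.

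The replicates' own lists ordered the members only loosely alike, and not alike below the 30 strongest. An overlapping entry was listed in replicate 1 for 387 members (median signal 35.8) and in replicate 2 for 346 (median 30.4), and 290 members (63.9%) had one in both. Other strong regions had entries in both in 64.95%, and upstream regions under a signal of 50 in 14.5%. For 11 members neither replicate's own ranked list held an entry, ruvb-2 among them. Over the 290 members, Spearman's rho between the replicates was 0.104 and Pearson's r 0.474, and over 28 of the 30 strongest rho was 0.354. Over the 262 other members with both entries rho was −0.125, and over 4365 other strong regions it was −0.101. All were chosen on a series-level signal, which bears on these values. The listed value was higher in replicate 1 for 196 of 290 members (67.6%), against 67.9% of other strong regions. The median log2 ratio of replicate 2 to replicate 1 was −0.26 (other strong regions −0.27), and −0.10 (−0.40 to 0.21) in the 30 strongest. The lists have separate scales, so a ratio shows which regions depart from this offset and not a difference in binding.

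In 38 of the 290 members (13.1%) the listed values were more than 2-fold apart, against 14% of other strong regions. The lowest log2 ratios were at T14G8.2 (48.1 in replicate 1 and 7.81 in replicate 2, −2.62), E01G6.1 (36.8 and 7.10, −2.37) and iff-2 (50.3 and 10.4, −2.28), the last a gene for translation factor eIF5A. At the other end were C08F1.12 (8.45 and 40.5, 2.26), pqn-48 (11.3 and 41.8, 1.89) and Y25C1A.8 (24.1 and 66.9, 1.47). Of the 30 strongest members, 28 had an entry in both replicates and 4 of these were more than 2-fold apart. T13C5.6 and epc-1 with Y111B2A.12 had no replicate 1 entry, with 39.2 and 53.1 in replicate 2.

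**Figure D3:**
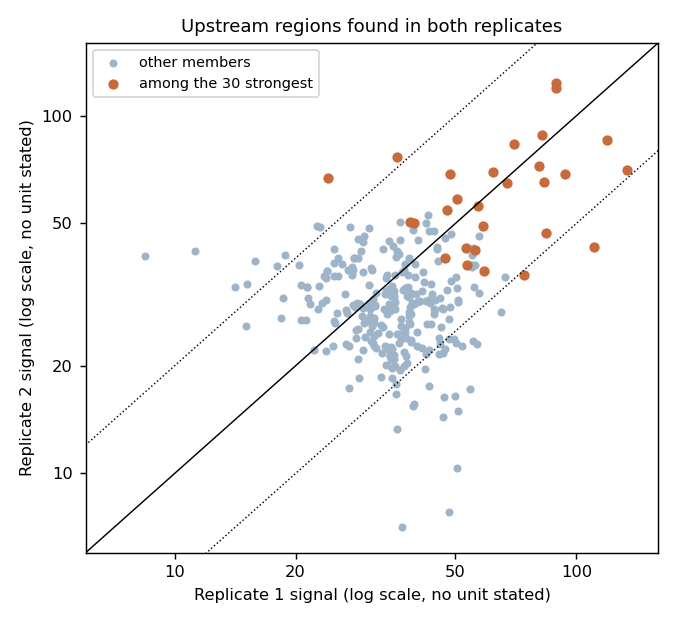
Replicate 1 against replicate 2 signal (no unit stated, log axes) for the 290 upstream regions with an entry in both replicates, with the 30 strongest members in orange, a solid line of equality and dotted lines at 2-fold differences. Most points form a cloud with little order (Spearman's rho 0.104), and the strongest regions extend it towards high values in both replicates.

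The rule bounds the distance from summit to start at 500 bp. Within it the median was 181.5 bp (165 to 209), against 196 bp for the 2360 upstream regions under a signal of 50. The first 100 bp held 127 summits (28.0%, against 24.5% of the bases meeting the rule), the next 100 bp held 25.3% (against 21.7%) and the last 100 bp held 56 (12.3%, against 16.3%). Weaker upstream regions had 27.7%, 23.1% and 13.1% in the same ranges. Of the 30 strongest, 17 lay within 200 bp and 1 beyond 400 bp, that of rpl-35 at 475 bp. Distance and signal, the values that chose the members, had a rho of 0.00939 over the 454 members, given as a description.

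**Figure D4:**
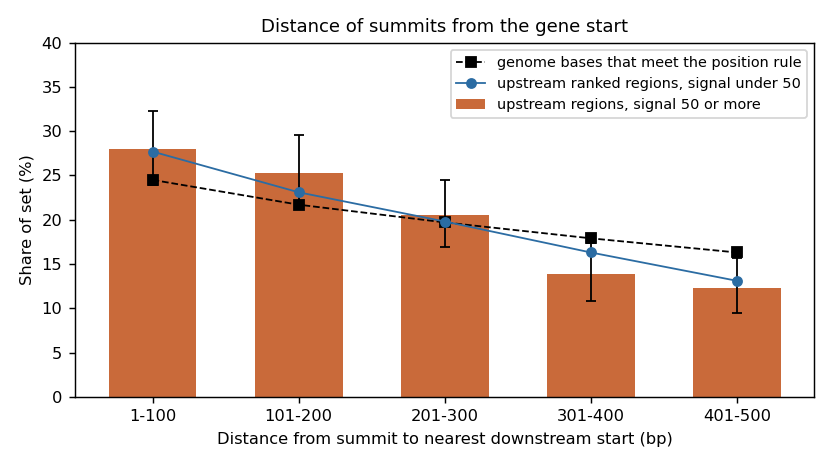
Share of summits (%) in each 100 bp of distance from the nearest downstream start, for the 454 upstream regions with strong signal (bars, exact 95% intervals), the 2360 upstream ranked regions under a signal of 50 (circles) and the genome bases that meet the rule (squares). All 3 fall with distance, and the strong regions go from 28.0% in the first 100 bp to 12.3% in the last.

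A member faced 1 protein-coding start in 399 cases, 2 in 54 and 3 in 1, the region at D1005.10, dhs-25 and D1005.4. Starts on both strands were served by 51 members (11.2%, 8.48 to 14.5), against 6.99% of weaker upstream regions. Among the 30 strongest 9 were of this kind (30%), including the F44E5.5 and F44E5.4, rpl-15 and K11H12.8, rpl-12 and lin-54, and vps-51 and lin-35 regions. VPS-51 is a subunit of a tethering complex for vesicles returning to the Golgi. The share went from 8.07% at signals of 50 to 60 to 33.3% at 100 to 150, where it rests on 4 of 12 members. Such a bidirectional region does not show which of the genes the bound protein relates to.

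Base composition moved with signal. The windows of 50 bases on either side of the summits had a mean GC content of 42.4% ± 9.29 (SD, n = 454 regions), against 37.1% ± 8.31 in the 2360 weaker upstream regions and 42.8% ± 8.43 in the 6721 other strong regions. The other strong regions mix unlike places, with means of 45.33% in coding sequence, 41.45% in other intergenic places and 40.43% in introns. Members thus lay near the mean of this mix, under coding sequence and above introns and other intergenic places. They had more GC than upstream regions of lower signal. The window exceeded its own flanks, 300 to 400 bp away, in 65.2% of members, in 64.96% of other strong regions and in 52.0% of weaker upstream regions. Among the other strong regions this share was 73.5% in coding sequence, 65.5% in other intergenic places and 53.3% in introns. Median GC content was 39.6% at signals of 50 to 60, 46.5% at 75 to 100 and 52.5% at 150 or more, with a rho between GC content and signal of 0.279 over 454 members. GC content can shift read counts by itself, and its part in the signal was not tested.

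**Figure D5:**
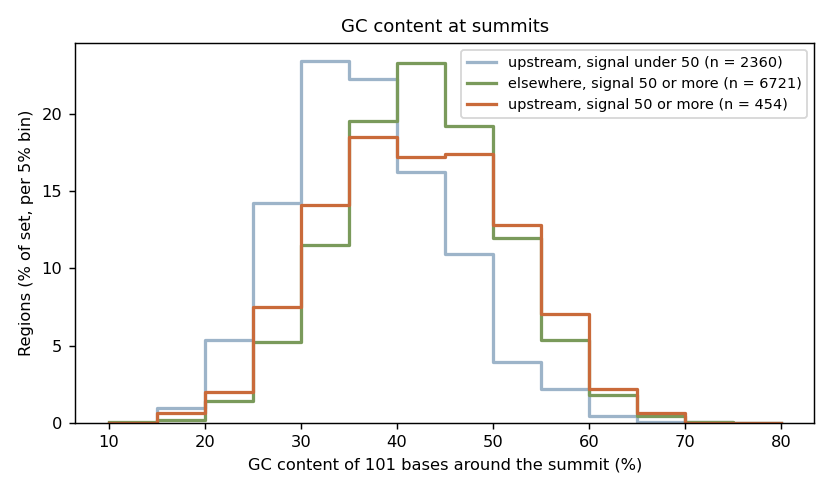
Distribution of GC content (%) in the 50 bases on either side of the summit, as a share of each set per 5% bin, for upstream regions of signal 50 or more (n = 454), strong regions elsewhere (n = 6721) and upstream regions under a signal of 50 (n = 2360). The first 2 distributions lie close together, with means of 42.4% and 42.8%, and the third is shifted to lower GC content, with a mean of 37.1%.

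The shared words of the windows shown above were rarer below the 30 strongest members, from which they were picked. ACACGCT on either strand was in 8 of the 30 strongest, the lrpr-1 and the F56G4.6 with wbp-4 regions and the 6 of rpl-3, cox-5A, tasp-1, rpl-15 with K11H12.8, cdc-48.1 and rpl-35. It was in 0 of the members ranked 31 to 100, in 6 of the 354 below (1.69%), in 0.847% of weaker upstream regions and in 0.476% of other strong regions. At least 1 of the 5 picked words was in 18 of the 30 strongest, in 6 of the next 70 (8.57%), in 25 of the other 354 (7.06%) and in 3.43% of weaker upstream regions. Of the 84 other strong regions with a signal of 100 or more, 7 held one (8.33%). The words were picked from the 30 strongest out of 8192 words of that length, so the count there is a description. In the tasp-1 and cox-5A windows, and on the other strand at rpl-15 and rpl-35, 3 of the words overlap in one unbroken stretch. The rpl-3 window holds 2 of them as one stretch, with CGCACAC nearer to the gene.

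A set of 13 motifs, chosen with earlier results of these data known, was searched on both strands in the same windows. AGCGCG was in 5.95% of members, 1.91% of weaker upstream regions and 1.82% of other strong regions. Among the 30 strongest 10 held it. CGCGCA, which can share bases with AGCGCG, was in 5.95%, 2.46% and 2.08%, and GAGAGA, a promoter repeat, in 14.5%, 8.56% and 7.19%. TATAAA, the core of a TATA box, went the other way and was in 7.05% of members and 12.1% of weaker upstream regions, but in 5.95% of other strong regions. Also lower in members than in weaker upstream regions were TGATAA (7.27% against 11%), TTTTTTT (12.8% against 18.5%) and TTTCAG (13% against 16%). So were GTAAACA (0.441% against 1.23%), GGTTCGA (0.441% against 0.805%) and TGACTCA (0.661% against 1.19%). GGGCGG (5.95% against 3.56%) and CACGTG (3.96% against 2.08%) were higher. Since GC-rich words are more frequent in GC-rich windows, counts were also taken in windows of 45 to 55% GC. There AGCGCG was in 13.9% of 137 members and 5.41% of 351 weaker upstream regions, CGCGCA in 10.2% and 5.98%, GAGAGA in 19.7% and 14.2%, and CACGTG, the E-box of bHLH proteins, in 6.57% and 5.7%. AGCGCG lies inside AGCGCGC, a word picked from the 30 strongest, and those members were not left out of these counts. For TATAAA the shares in the windows of 45 to 55% GC were 3.65% and 4.27%, close to each other. So were those for GGGCGG (9.49% and 8.83%) and GGTTCGA (1.46% and 1.42%). TGATAA (2.92% and 4.56%), TTTCAG (5.84% and 7.69%) and TGACTCA (0.73% and 1.14%) stayed lower in members. TTTTTTT (8.76% and 6.55%) and GTAAACA (0.73% and 0.57%) were higher in members there. GTAAACA and TGACTCA each rest on 1 member there. Of other strong regions, TTTTTTT was in 9.37% and TGATAA in 7.07%.

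TTCNNGAA, shown above, was no more frequent in members (3.52%) than in weaker upstream regions (5.47%) or other strong regions (5.77%). Of the 30 strongest, 3 held it, those of F44E5.5 with F44E5.4, R107.5, and W02H5.19 with W02H5.16. The windows of hsp-1 and of Y55F3AR.2 with cct-8 did not hold it. The small heat shock protein genes hsp-16.41 and hsp-16.2 shared a member at 28 bp and 193 bp from their starts, with a signal of 84.5 and 35.8 and 41.9 in the replicates. A match is a description of letters and does not show that a heat shock factor or ZTF-1 was bound there.

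By gene function, 510 of 19985 protein-coding genes (2.55%) had a member within 500 bp upstream. Cytosolic ribosomal protein genes had one in 11 of 83 (13.3%, 6.81 to 22.5), with a median signal of 102.2. Beyond the 6 already named these were rps-28 (62.5), rps-19 (61.6), rpl-7 (58.3), rps-20 (57.8) and rpl-7A (56.6), all near the median of all members (60.3). Of 72 genes in the chaperone list 8 had a member (11.1%), at 6 regions because pairs share one, with cct-7 (61.7) and dnj-24 (62.5) beside those given above. Translation factor genes had 4 of 40 (10%, 2.79 to 23.7), at eif-3.C (81.5), eif-3.B, eef-1A.2 and iff-2.

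Histone genes had 5 of 72 (6.94%, 2.29 to 15.5) and homeobox genes 5 of 90 (5.56%, 1.83 to 12.5). Cell cycle genes had 4 of 60 (6.67%, 1.85 to 16.2), at cdc-48.1, pcn-1, rfc-2 and rnr-1. The 5 histone genes stood at 3 regions because pairs share one, with his-72, a gene for histone H3.3, at 81. The bHLH genes had 3 of 37 (8.11%, 1.7 to 21.9), at ngn-1, mdl-1 and hlh-11. The intervals of these lists overlap that of translation factor genes. Neuropeptide genes had 5 of 140 (3.57%). Mitochondrial ribosomal protein genes had 2 of 70 (2.86%), proteasome genes 1 of 33 (3.03%), ubiquitin and segregase genes 2 of 74 (2.7%), respiratory chain and ATP synthase genes 1 of 51 (1.96%, cox-5A) and splicing factor genes 1 of 57 (1.75%), all near the share of all genes. Collagen genes, which build the cuticle, had 1 of 174 (0.575%, col-175), nuclear receptors 3 of 274 (1.09%) and immune effector genes 4 of 312 (1.28%). The tRNA synthetase (32 genes), mitochondrial import (13) and ztf zinc finger (25) lists had none. For upstream regions under a signal of 50 and no member, all genes stood at 12.7% and cytosolic ribosomal protein genes at 12%. Homeobox genes stood highest of the lists at 21.1%, collagens at 19% and nuclear receptors at 18.6%. Kinesin, dynein and tubulin genes stood at 17.9%, ubiquitin and segregase genes at 17.6% and mitochondrial import genes at 15.4% (2 of 13). Immune effector genes stood at 11.5%, tRNA synthetases at 9.38% and ztf genes at 12%. The reason for these shares was not tested. The lists were chosen with earlier results known and are described by counts alone.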

How the data were processed

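The deposited files were IDR (irreproducible discovery rate) peak lists on assembly ce11, per the deposited text notes, with a ranked and a thresholded list for the comparison of replicates, for the pooled data and for each of the 2 replicates. Per the labels, neither an aligner nor a peak caller is named, and the inputs of each comparison are likewise not given in the sources. The authors' deposited signal has no stated unit and served to order and describe peaks inside a list. The −log10 q-values and, as a score, the −log10 IDR values were deposited by the authors in columns without a header and were turned into q-values and IDR. No file gives read counts, so the depth is unknown and no error can be given for a single peak's signal.

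Entries sharing 1 bp or more were merged, and a replicate's signal for a member was that of the strongest overlapping entry in that replicate's own ranked list. The lists have no shared scale, so log2 ratios, 2-fold counts and higher or lower calls between the replicates' lists are descriptions of the listed values. Whether the replicates differ beyond technical spread cannot be judged from 1 pair. Gene models were those of Ensembl release 115 for WBcel235, which equals ce11, and bases were read from RefSeq's copy. Coordinates are 1-based. Work was done in Python 3.11.15 with pandas 2.3.3, numpy 2.4.6 and scipy 1.17.1, and the member rule was tested on simulated lists. Intervals are at 95% and cover counting error only, and no test was run over regions, which are not replicates.

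The members, the gene lists and the motifs were chosen with earlier results of these data known. Genes named were those downstream of the 30 strongest members, members in the gene lists (given in part by counts), members in both single-replicate thresholded lists, the 5 regions on either side of the threshold, the 3 most extreme replicate ratios in each direction, and up to 10 members with a noncoding gene. Other members are named beside a count, chosen after their values were seen.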

Additional observations from a re-analysis of the deposited data

How the results depend on the processing

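Values that moved did so mostly as the changed rule requires. With a signal threshold of 75 there were 84 members (10.41% of strong regions) with a median GC content of 47.03% and 17.86% with starts on both strands, and with a threshold of 40 there were 857 members and a GC content of 39.6%. An upstream window of 250 bp gave 291 members (4.056%) at a median of 110 bp, and one of 1000 bp gave 701 (9.77%) at 331 bp. Within the replicate-compared thresholded list there were 35 members (16.2% of its strong regions), with a GC content of 47.52%, 25.71% with starts on both strands and a median log2 replicate ratio of −0.155. The cause of the shifts in GC content, shared starts and ratio was not tested.

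With 1 replicate left out, taking the other's own list at the same number of regions, member counts were 436 to 467, shares 6.077% to 6.509%, distances 184.5 to 192 bp, GC content 40.59% to 41.58% and starts on both strands 8.716% to 9.422%, and 7 to 8 members were in the remaining replicate's own thresholded list. No replicate ratio can be formed from 1 replicate. Merging within 100 bp, starts of all transcripts and the pooled ranked list left 453 to 454 members. Leaving out summits with a repeated word, an alternative chosen after seeing the data, left 435 members. In all, 54 values stayed within 1.5 times the main count or, for shares and medians, within the main value's 95% interval, 19 moved and 0 reversed. Counts, shares, distances and GC content cannot change sign, so only the median log2 replicate ratio could have done so. Among the 54, the members in the thresholded list went to 27 with the 250 bp window and to 50 with the 1000 bp window. No paired analysis was possible because there was 1 group only. The unknown depth means that a region's absence from a replicate's list is no measure of absent binding.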

Other observations

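Noncoding genes overlapped 77 of the 454 upstream regions (17%), against 12% of upstream regions under a signal of 50 and 10.4% of strong regions elsewhere, a mean over unlike places that included 20.8% of the other intergenic strong regions and 4.39% of those in coding sequence. At the summit itself one was present in 25 members (5.51%, against 3.26% and 3.44%, and 8.2% of the other intergenic strong regions). Genes annotated as ncRNA were in 64 members (14.1%), against 8.3% of weaker upstream, 7.57% of other strong and 15.9% of other intergenic strong regions. In the same order, snoRNA genes were in 6 members (1.32%, against 0.466%, 0.729% and 0.973%). For tRNA genes the count was 5 (1.1%, against 0.593%, 0.893% and 1.74%) and for piRNA genes 5 (1.1%, against 2.6%, 1.35% and 1.74%). At rps-1 the region of signal 102.2 overlapped F56F3.10 and F56F3.11, with the summit in the first. At hsp-1 (133.0) it overlapped F26D10.23, at cct-8 (158.0) Y55F3AR.4, at wwp-1 (94.8) Y65B4BR.10 and at T13C5.6 (94.6) C14F11.14. The regions at gcy-33 (91.1), ptc-1 (92.7), pcrg-1 (90.1) and D1086.3 (89.6) overlapped a tRNA gene with F57F5.7, ZK675.7, mrpr-1 and the snoRNA gene smy-3. The peak lists do not show which of the overlapping genes the signal belongs to.

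By chromosome, members per megabase of bases meeting the position rule were 80.6 on III, 68.8 on X, 68.7 on I, 57.2 on II, 52.7 on IV and 51.7 on V. Chromosome III held 70 members (15.4%) on 11.7% of those bases and 9 of the 30 strongest, and chromosome V held 22.2% on 26.3% and 3 of the 30 strongest. Of all strong regions, members included, 16.9% were on III and 20.2% on V, and of weaker upstream regions 11.6% and 26.3%. A word of 31 bases found elsewhere in the genome was in the summit window of 19 members (4.19%), against 9.24% of weaker upstream regions and 7.31% of other strong regions. Every word was repeated in 2 members, those of W10C8.5 (58.3) and C26B2.7 (54.5).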
